A study of Homo sapiens with 4 samples.

Results

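The clustered protocadherins are cell-surface adhesion proteins of the cadherin superfamily, encoded in 3 neighbouring gene clusters, alpha, beta and gamma, on human chromosome 5q31. Their messenger RNA was examined in A375, an established human melanoma line, after loss of p53. Members were all rows of the deposited table whose symbol starts with PCDHA, PCDHAC, PCDHB, PCDHGA, PCDHGB or PCDHGC followed by a number, which gave 57 of 26484 rows. They comprised 13 alpha, 2 alpha C-type, 16 beta, 12 gamma A, 7 gamma B and 3 gamma C-type genes and 4 pseudogenes. The knockout cells were A375 in which p53, a tumour-suppressing transcription factor, had been knocked out with CRISPR-Cas9 (2 libraries). They were set against parental A375 with wild-type p53 (2 libraries). All cells were grown in DMEM, and no drug, dose or time is labelled. The knockout libraries carry the numbers 2 and 8 in the table, and the labels do not say whether these are clones, cultures or repeat preparations. No edited cells that kept p53 were included, so loss of p53 cannot be told apart from editing or from the selection of edited cells. The labels name no separate cultures or passages, and p-values here speak only to the spread of these 4 libraries, which may be technical.

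Each alpha and gamma gene has its own promoter and its own large first exon, which encodes the extracellular cadherin repeats and the membrane span, and this variable exon is spliced to constant exons that all genes of the cluster share. Beta genes lie between the 2 clusters as single-exon genes without a constant part. In vertebrate neurons each cell transcribes a few members chosen largely at random, through promoters bound by CTCF and looped by cohesin to distant enhancers, while C-type members are used more uniformly. The proteins pair only with the same isoform on another cell and are known for self-avoidance of neurites and for neuron survival in mice. In melanoma their roles are far less settled.

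Whole reads recovered from the table totalled 30334054 and 32160978 in knockout libraries 2 and 8, against 29230554 and 36331894 in parental libraries 1 and 2. Chi-square per degree of freedom, which is near 1 where only counting noise separates libraries, was 65.3 between the knockout libraries, against 5.85 between the parental ones. Values are therefore given for each knockout library. Of the melanocyte lineage markers, SOX10 was abundant in every library (28125 and 25662 normalized counts in the knockout libraries, against 30033 and 29587 in the parental ones), while the pigment genes MLANA and TYR were at 0 in all 4. The pigment gene PMEL, named after its values were seen, was weak, with 55.8 and 36.1 in the knockout libraries, against 28.5 and 28.1 in the parental ones.

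No clustered protocadherin passed the test between the genotypes. In all that follows values are normalized counts, which are reads divided by the authors' library factor, and pairs of values stand for knockout libraries 2 and 8 and for parental libraries 1 and 2, in that order. Limma (adjusted p under 0.05 over the 15431 genes with at least 10 normalized counts in at least 2 libraries) called 0 of 55 tested members higher and 0 lower, beside 0% of all genes in either direction. The smallest adjusted p of a member by limma was 0.313, and the smallest of any gene was 0.121. At an unadjusted p under 0.05 limma had 3 members higher (PCDHB8, PCDHB12 and PCDHGB2, beside 5.85% of all genes) and 2 lower (PCDHGA12 and PCDHGC3, beside 6.16%). DESeq2, which called 1.21% of all genes higher and 1.22% lower, called 0 of 56 members, with a smallest adjusted p of 0.183. At an unadjusted p under 0.05 DESeq2 had 2 members higher (PCDHA1 and PCDHGB2, beside 4.17% of genes) and 2 lower (PCDHGA12 and PCDHGC3, beside 3.71%). The edgeR quasi-likelihood test called 0 members and 0 genes, and had 2 members higher (PCDHB12 and PCDHGB2, beside 6.13% of genes with TMM factors and 6.24% with RLE factors) and 2 lower (PCDHGA12 and PCDHGC3, beside 5.97% and 5.89%) at an unadjusted p under 0.05. In every test the share of members past the unadjusted threshold was below the share of all genes.

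Both knockout libraries lay above both parental libraries for 19 of the 55 tested members (34.5%, beside 22.8% of all genes) and below both for 8 (14.5%, beside 23.7%). Of the 19, 7 were alpha or alpha C-type genes, 9 were beta genes, 1 was a beta-cluster pseudogene, and PCDHGA5 and PCDHGB2 were gamma genes. The 8 that lay below were all gamma genes: PCDHGA11, PCDHGA12, PCDHGB1, PCDHGB4, PCDHGB6, PCDHGC3, PCDHGC4 and PCDHGC5. For another 15 members 1 knockout library lay above and the other below both parental libraries (27.3%, beside 25% of all genes). The median log2 fold change of the tested members, knockout over parental, was 0.12, beside -0.01 over all genes tested. By library, the members' median was 0.12 (knockout library 2) and 0.22 (knockout library 8). In bulk RNA, fewer cells that express a member and less RNA per cell cannot be told apart.

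**Figure D1:**
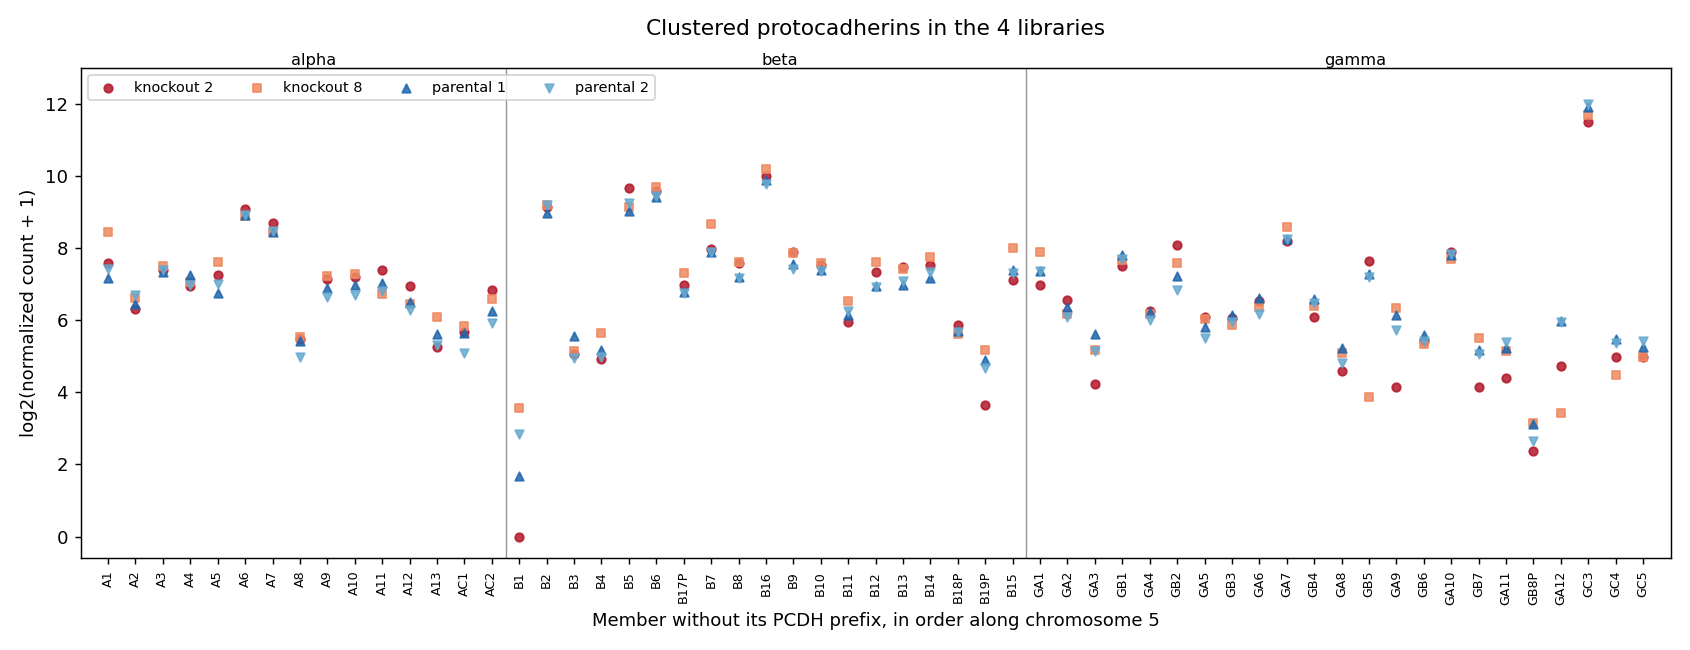
Level of each of the 57 clustered protocadherin rows (x axis, in order along chromosome 5) as log2(normalized count + 1) in knockout libraries 2 and 8 and parental libraries 1 and 2, 1 point per library. PCDHGC3 stands highest in all 4 libraries, and the widest gaps between the 2 knockout points are at PCDHB1 and PCDHGB5.

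The clustered protocadherins were expressed broadly and weakly, with 1 exception. They held 0.0386% and 0.0420% of all reads in the knockout libraries, against 0.0386% and 0.0389% in the parental libraries. Of the 57 rows, 56 had reads in every library and 55 had a mean of at least 20 normalized counts. The median member had 123 and 96.7 normalized counts in the knockout libraries, against 106 and 102 in the parental ones. Levels of different genes were compared per kilobase of exon sequence that no other member shares (GENCODE 29, hg38). On that scale PCDHGC3 led with a mean of 950.5 normalized counts per kilobase in knockout cells, against 1213 in parental cells. PCDHB6 came next with 242 in knockout cells, against 209 in parental cells, so that PCDHGC3 exceeded it 3.93-fold in knockout cells and 5.80-fold in parental cells. The level of PCDHB16 per kilobase was 238 in knockout cells, against 198 in parental cells, close to that of PCDHB6. Then came PCDHB5 (200.1 in knockout cells, against 166 in parental cells) and PCDHA6 (155 in knockout cells, against 147 in parental cells), and the median member had 30.4, against 25.6. The leading 5 members stood in the same order in both genotypes, and the gap between PCDHB6 and PCDHB16 in knockout cells was smaller than that between the knockout libraries of either gene.

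Members share sequence, which limits how reads could be assigned. All 15 alpha genes share the exons chr5:140978949-140979007, chr5:140982475-140982563 and chr5:141009627-141012344, and 22 of the 23 gamma rows share the exons chr5:141494807-141494865, chr5:141505393-141505481 and chr5:141510947-141512979 (hg38, GENCODE 29, plus strand). Reads inside those exons belong to no single gene. The lowest of those 22 gamma genes had 10 reads in knockout library 8 and the lowest alpha member 35 reads in knockout library 2, so the shared exons did not add more than that to every member. Within the unshared exons a median of 9.06% of all 50-base stretches recur in another member. For 9 members that share exceeds 20%, led by PCDHB8 with 45.1%, most of it shared with PCDHB13. How reads with several alignments were counted is not given in the sources used here, and the values of such pairs are uncertain to that extent.

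Alpha genes were level or slightly higher in the knockout libraries. Of the 13, all tested, 5 lay above both parental libraries and 0 below (beside 22.8% and 23.7% of all genes). Of these 13, 11 had a log2 fold change above 0, beside 7554 of all 15431 genes tested. The median log2 fold change was 0.20, with 0.26 in knockout library 2 and 0.14 in knockout library 8. PCDHA1, the first gene of the cluster (chr5:140786136-141012347), was farthest from the parental cells in knockout library 8. It had 193 and 346 in the knockout libraries, against 143 and 169 in the parental libraries. Both knockout values lay above both parental values, with knockout library 8 the highest by a wide margin. Its log2 fold change by limma was 0.73 ± 0.33 (SE), with a 95% interval of -0.13 to 1.59 and an adjusted p of 0.470. PCDHA5 had 152 and 193 in the knockout libraries and 106 and 127 in the parental libraries. PCDHA9 had 139 and 148 in the knockout libraries and 118 and 98.2 in the parental libraries. PCDHA10 had 144 and 155 in the knockout libraries and 125 and 104 in the parental libraries. These 3 were higher in both knockout libraries, with log2 fold changes of 0.55, 0.41 and 0.39 and adjusted p by limma of 0.433, 0.500 and 0.510. PCDHA8 had 43.1 and 44.9 in the knockout libraries, against 41.7 and 30.7 in the parental ones, again without overlap, although 28.0% of its 50-base stretches recur in other members.

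The 8 other alpha genes overlapped between genotypes. PCDHA6, the highest alpha gene per kilobase, had 542 and 469 in the knockout libraries, against 481 and 479 in the parental ones. PCDHA7 had 416 and 344 in the knockout libraries, against 344 and 351 in the parental ones. For both, knockout library 2 was the highest of the 4 and knockout library 8 the lowest (for PCDHA7 level with parental library 1 to 3 digits), and 25.4% of the stretches of PCDHA6 and 25.9% of those of PCDHA7 recur in other members. PCDHA11 (166 and 105 in knockout, 129 and 111 in parental) and PCDHA13 (36.8 and 67.4 in knockout, 48.2 and 38.6 in parental) also had 1 knockout library on each side of the parental pair. PCDHA12 was higher in knockout library 2 alone, with 123 and 85.9 in the knockout libraries, against 88.8 and 76.3 in the parental ones. PCDHA3 had 165 and 181 in the knockout libraries, against 160.1 and 168 in the parental ones. PCDHA2 and PCDHA4 were the 2 alpha genes with a log2 fold change below 0 (-0.11 and -0.09). PCDHA2 had 77.9 and 96.7 in the knockout libraries, against 86.6 and 102 in the parental ones. PCDHA4 had 123 and 133 in the knockout libraries, against 150.2 and 124 in the parental ones.

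The 2 alpha C-type genes have a sequence closer to other C-type members than to the alpha genes beside them. Both genes lay above both parental libraries in the knockout libraries, beside 22.8% of all genes. PCDHAC2, which in mice is needed for the even spacing of serotonergic axons, had 113 and 95.7 in the knockout libraries, against 75.7 and 59.6 in the parental ones. The groups did not overlap, with a log2 fold change of 0.62 ± 0.24 (SE) and an adjusted p of 0.424 by limma. PCDHAC1 had 49.5 and 55.7 in the knockout libraries, against 49.3 and 33.3 in the parental ones, where the lower knockout value and the higher parental value nearly met.

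Beta genes were mostly higher in the knockout libraries. Of the 15 tested, 9 lay above both parental libraries and 0 below (beside 22.8% and 23.7% of all genes). Of these 15, 14 had a log2 fold change above 0, beside 7554 of all 15431 genes tested. The median log2 fold change was 0.25, with 0.15 in knockout library 2 and 0.38 in knockout library 8. PCDHB2, PCDHB3, PCDHB4, PCDHB5, PCDHB11 and PCDHB15 changed direction when 1 library was left out. PCDHB16 (chr5:141181399-141186399), close to PCDHB6 per kilobase, had 1011 and 1165 in the knockout libraries, against 945 and 867 in the parental ones. PCDHB6 had 759 and 819 in the knockout libraries, against 678 and 689 in the parental ones. Both were higher in both knockout libraries by less than 1.5-fold, with log2 fold changes of 0.26 ± 0.12 (SE) and 0.21 ± 0.10 (SE) and adjusted p by limma of 0.472 and 0.506. PCDHB12 had 159 and 195 in the knockout libraries, against 123 and 120.2 in the parental ones. PCDHB8 had 193 and 195 in the knockout libraries, against 146 and 142 in the parental ones. These are the 2 beta genes with an unadjusted p under 0.05 by limma (0.0445 and 0.0493), with log2 fold changes of 0.53 ± 0.19 (SE) and 0.43 ± 0.16 (SE) and adjusted p of 0.401 and 0.414. PCDHB13, which shares sequence with PCDHB8, had 178 and 171 in the knockout libraries, against 125 and 134 in the parental ones. How far reads that match both genes set the values of PCDHB8 and PCDHB13 was not tested.

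Among the remaining beta genes without overlap, PCDHB7 stood out by the distance between its knockout values. PCDHB7 (chr5:141172619-141176383) had 249 and 403 in the knockout libraries, against 236 and 237 in the parental ones. Knockout library 2 was barely above the parental pair and knockout library 8 was well above it, and the log2 fold change was 0.42 ± 0.27 (SE) with an adjusted p of 0.573 by limma. PCDHB9 had 235 and 230.5 in the knockout libraries, against 185 and 168 in the parental ones. PCDHB14 had 185 and 214 in the knockout libraries, against 144 and 159 in the parental ones. PCDHB10 had 182 and 191 in the knockout libraries, against 166 and 163 in the parental ones. The log2 fold changes of these 3 were 0.39, 0.40 and 0.18, and PCDHB9 and PCDHB10 share sequence with each other.

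Beta genes that overlapped included PCDHB5, where knockout library 2 alone was high. PCDHB5 (chr5:141135218-141138625) had 803 and 561 in the knockout libraries, against 523 and 609 in the parental ones. PCDHB15 went the other way, with 137 and 255 in the knockout libraries, against 167 and 158 in the parental ones. Knockout library 8 was the highest and knockout library 2 the lowest of the 4 for PCDHB15. PCDHB11 had the same order, with 61.0 and 90.8 in the knockout libraries, against 70.2 and 75.4 in the parental ones. PCDHB4 had it too, with 29.5 and 48.8 in the knockout libraries, against 35.1 and 30.7 in the parental ones. PCDHB2 was nearly level, with 559.9 and 579 in the knockout libraries, against 497 and 589 in the parental ones. PCDHB3, the only tested beta gene with a log2 fold change below 0 (-0.15), had 32.6 and 34.2 in the knockout libraries, against 46.0 and 29.8 in the parental ones. PCDHB1, the first beta gene, was too low to be tested, with 0 and 10.7 in the knockout libraries, against 2.19 and 6.14 in the parental ones. A count of 0 in knockout library 2 allows up to 3 reads, or 3.16 normalized counts.

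The transcribed pseudogenes followed no common pattern. PCDHB17P had 124 and 158 in the knockout libraries, against 109 and 107 in the parental ones, without overlap. PCDHB18P had 56.8 and 47.9 in the knockout libraries, against 50.4 and 50 in the parental ones. PCDHB19P was lowest in knockout library 2, with 11.6 and 35.2 in the knockout libraries, against 28.5 and 24.6 in the parental ones. Those values rest on 11 and 36 reads in the knockout libraries, against 26 and 28 in the parental ones. The gamma pseudogene PCDHGB8P was between 4.21 and 7.81 in the 4 libraries and was not tested.

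Gamma genes had the lowest correlation of the 3 clusters between the knockout libraries. Across the 22 gamma genes the 2 knockout libraries correlated with r = 0.807 on the log2(normalized count + 1) scale, against r = 0.993 for the parental pair. For the 15 alpha genes it was 0.916 in the knockout pair, against 0.980 in the parental pair, and for the 16 beta genes 0.959, against 0.985. Each coefficient describes 1 pair of libraries, over genes that share a locus and in part their reads. The median absolute log2 difference between the knockout libraries was 0.46 for gamma A, 0.32 for gamma B and 0.18 for gamma C-type genes. It was 0.27 for alpha genes, 0.20 for tested beta genes and 0.29 over all genes with a parental mean from 20 to 1000.

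PCDHGB5 (chr5:141397987-141512979) was low in knockout library 8 and not in knockout library 2. It had 197 and 13.7 in the knockout libraries, against 154 and 145 in the parental ones. In reads these were 187 and 14 in the knockout libraries, against 140 and 165 in the parental ones, and the exact Poisson 95% interval of the 14 reads ran from 7.65 to 23.5, for counting error only. Knockout library 8 alone was low, and knockout library 2 was the highest of the 4. Only 0.369% of all genes tested differed as much between the 2 knockout libraries. The log2 fold change of the genotype was -1.48 ± 1.25 (SE) by limma (95% interval -4.78 to 1.82, adjusted p = 0.675) and -0.50 ± 1.49 (SE) by DESeq2.

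PCDHGA9 (chr5:141402932-141512979), the next gene along, showed the reverse. It had 16.8 and 79.1 in the knockout libraries, against 69.1 and 51.8 in the parental ones. These values rest on 16 and 81 reads in the knockout libraries, against 63 and 59 in the parental ones. Knockout library 2 alone was low and knockout library 8 was the highest, a difference reached by 1.54% of all genes tested. The log2 fold change by limma was -0.69 ± 0.76 (SE), with an adjusted p of 0.740.

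PCDHGA12 (chr5:141430589-141512979), the last gamma A gene, was low in both knockout libraries. It had 25.3 and 9.77 in the knockout libraries, against 62.5 and 60.5 in the parental ones. The reads were 24 and 10 in the knockout libraries, against 57 and 69 in the parental ones. The groups were well apart, but the knockout libraries also differed by more than 2-fold. The log2 fold change was -1.89 ± 0.50 (SE) (95% interval -3.21 to -0.57), and this was the smallest adjusted p of any member by limma (0.313) and by DESeq2 (0.183).

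**Figure D2:**
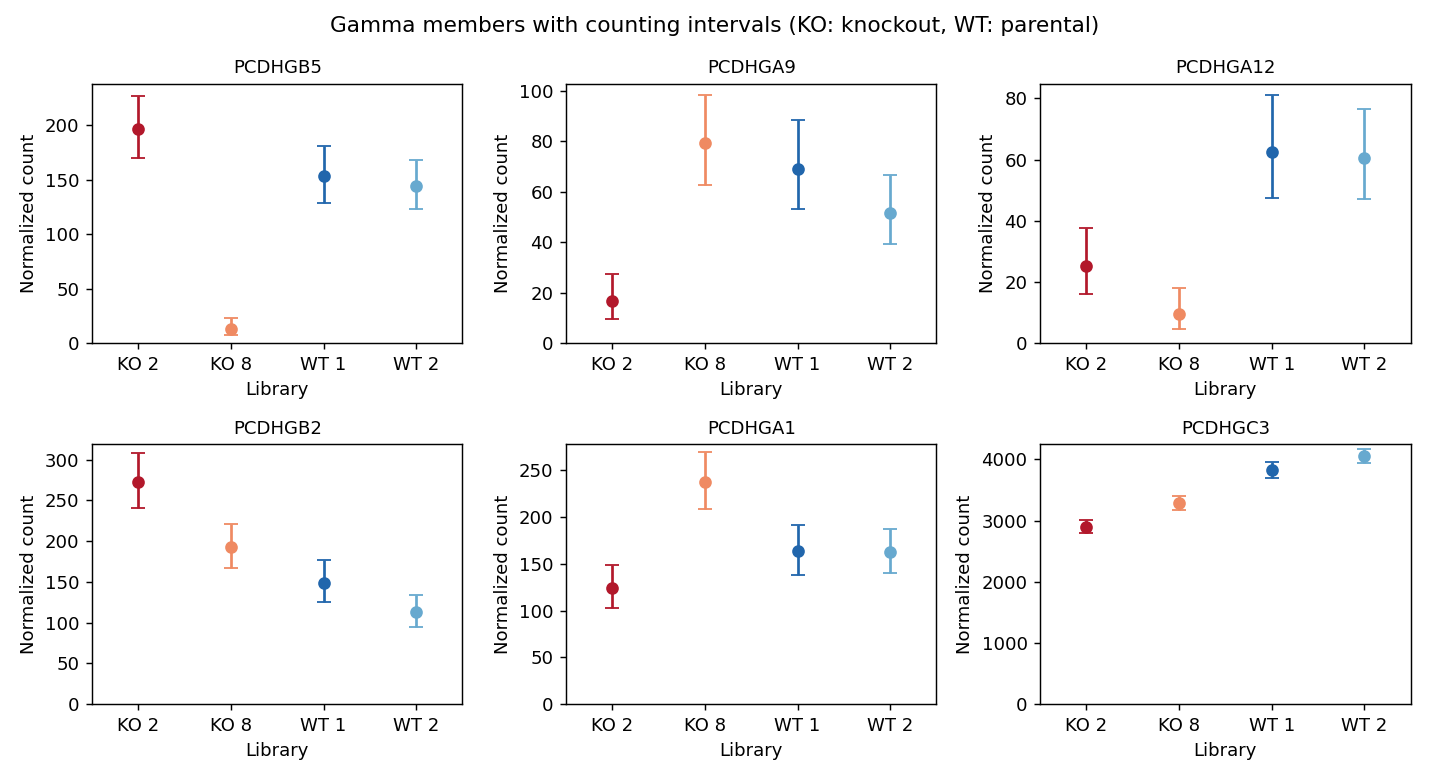
Normalized counts of 6 gamma genes (1 panel each, y axes from 0) in knockout (KO) libraries 2 and 8 and parental (WT) libraries 1 and 2, with exact Poisson 95% intervals of the reads, which cover counting error only. PCDHGB5 is low in knockout library 8 only (13.7), PCDHGA9 in knockout library 2 only (16.8), PCDHGA12 in both, and PCDHGC3 is lower in both knockout libraries.

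Promoter stretches are shown because PCDHGB5 and PCDHGB4, with nearly the same promoter sequence, had different levels. RefSeq promoters (GRCh38.p14) were found for 47 of the 57 members, and PCDHGA12 was not among them. The short element CGCTG is the core of a conserved sequence found before most clustered protocadherin genes. Searched on both strands from 250 bases before to 50 bases after the start, CGCTG occurred in 9 of 13 alpha, 12 of 14 beta and 20 of 20 gamma promoters, and in 47.8% of all 27305 promoters. The most common 10-base form with CGCTG at bases 5 to 9 was then taken from each cluster's own promoters, so its count there is a description. GCGCCGCTGT occurred in 9 of 20 gamma promoters, 0 alpha and 0 beta ones, and 0.121% of all promoters. GTGGCGCTGC occurred in 11 of 14 beta promoters, 0 of the other members and 0.183% of all, and ATGTCGCTGT in 5 of 13 alpha promoters, 0 of the other members and 0.0366% of all. The 60-base windows below lie before the annotated start on the plus strand, with the longer form, or else CGCTG, in capitals:
PCDHGB5 (chr5:141397855-141397914): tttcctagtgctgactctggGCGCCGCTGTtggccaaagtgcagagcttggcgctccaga
PCDHGB4 (chr5:141387609-141387668): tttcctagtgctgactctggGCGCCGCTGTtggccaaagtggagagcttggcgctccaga
PCDHGA9 (chr5:141402706-141402765): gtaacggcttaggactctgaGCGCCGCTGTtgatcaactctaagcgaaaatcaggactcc
PCDHGA7 (chr5:141382641-141382700): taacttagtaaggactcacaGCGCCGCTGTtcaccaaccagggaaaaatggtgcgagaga
PCDHGB2 (chr5:141359913-141359972): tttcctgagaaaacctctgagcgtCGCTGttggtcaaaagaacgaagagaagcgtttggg
PCDHGC3 (chr5:141475872-141475931): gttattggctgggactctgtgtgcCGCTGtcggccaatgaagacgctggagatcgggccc
PCDHA1 (chr5:140786078-140786137): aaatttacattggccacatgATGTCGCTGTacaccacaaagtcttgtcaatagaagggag
PCDHB7 (chr5:141172558-141172617): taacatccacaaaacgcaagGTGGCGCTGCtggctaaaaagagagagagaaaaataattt
The windows of PCDHGB5 and PCDHGB4 were identical at 59 of 60 positions, against 36 of 60 for PCDHGB5 and PCDHGA7 and 30 of 60 each for PCDHGB5 with PCDHGA9 and with PCDHGC3. The windows of PCDHB8 and PCDHB13, not shown, also nearly match, and both genes were higher in both knockout libraries. A match describes letters only.

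PCDHGB4, whose window nearly equals that of PCDHGB5, did not follow it in knockout library 8. It had 66.3 and 83.0 in the knockout libraries, against 94.3 and 87.7 in the parental ones, below both parental values in each knockout library. Its exons share 21.3% of their stretches with other members, mostly PCDHGB5, so some reads match both genes. PCDHGA7, which carries the same longer form, was the highest gamma A gene per kilobase and had 290.5 and 385 in the knockout libraries, against 304 and 305 in the parental ones. PCDHGA7 was thus highest in knockout library 8, with a log2 fold change of 0.13 ± 0.19 (SE).

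The other gamma B genes lay on both sides of the parental values. Of all 7 gamma B genes, 1 lay above and 3 below both parental libraries (beside 22.8% and 23.7% of all genes). PCDHGB2 (chr5:141360042-141512979) was the member with the largest log2 fold change above 0, with 273 and 192 in the knockout libraries, against 149 and 113 in the parental ones. Both knockout libraries lay above both parental ones, knockout library 2 more so, with a log2 fold change of 0.81 ± 0.26 (SE), a 95% interval of 0.12 to 1.51 and an adjusted p of 0.373 by limma. PCDHGB1 had 179 and 200.2 in the knockout libraries, against 221 and 204 in the parental ones, lower without overlap but by little. PCDHGB6 had 42.1 and 39.1 in the knockout libraries, against 47.1 and 42.1 in the parental ones, where knockout library 2 and parental library 2 were equal to 3 digits. PCDHGB3 overlapped, with 65.2 and 57.6 in the knockout libraries, against 69.1 and 60.5 in the parental ones. PCDHGB7 had 16.8 and 43.9 in the knockout libraries, against 35.1 and 32.5 in the parental ones, low in knockout library 2 alone on 16 reads.

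The other gamma A genes had no common direction. Of all 12 gamma A genes, 1 lay above and 2 below both parental libraries (beside 22.8% and 23.7% of all genes). PCDHGA1, the first gene of the cluster (chr5:141330571-141512981), had 124 and 237 in the knockout libraries, against 163 and 162 in the parental ones. Its parental values were nearly equal, with knockout library 8 above and knockout library 2 below them. PCDHGA10 had 238 and 204 in the knockout libraries, against 221 and 226 in the parental ones. PCDHGA2 had 93.7 and 70.3 in the knockout libraries, against 81.1 and 66.7 in the parental ones. PCDHGA4 had 75.8 and 70.3 in the knockout libraries, against 73.5 and 63.2 in the parental ones. PCDHGA6 resembled these 3, which overlapped between genotypes, with 90.5 and 82.0 in the knockout libraries, against 97.6 and 71.0 in the parental ones. PCDHGA5 was the only gamma A gene above both parental values in both knockout libraries, with 67.4 and 64.5 in the knockout libraries, against 54.8 and 44.7 in the parental ones. PCDHGA11 lay below both, with 20 and 34.2 in the knockout libraries, against 36.2 and 41.2 in the parental ones. PCDHGA3 was low in knockout library 2 alone, with 17.9 and 35.2 in the knockout libraries, against 48.2 and 34.2 in the parental ones. PCDHGA8 had 23.2 and 33.2 in the knockout libraries, against 36.2 and 27.2 in the parental ones, again lowest in knockout library 2.

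The 3 gamma C-type genes were lower in both knockout libraries, PCDHGC3 with the narrowest error of all members. PCDHGC3 (chr5:141475947-141512979), in mice linked to dendrite branching through AXIN1, had 2898 and 3282 in the knockout libraries, against 3829 and 4057 in the parental ones. The parental libraries were the 2 highest and the gap between genotypes exceeded the gap within either. Its log2 fold change by limma was -0.35 ± 0.10 (SE), with a 95% interval of -0.61 to -0.10, an unadjusted p of 0.0166 and an adjusted p of 0.319, so it did not pass the threshold over all genes. PCDHGC4, which in mice keeps interneurons alive during development, had 30.5 and 21.5 in the knockout libraries, against 43.9 and 40.3 in the parental ones. PCDHGC5 had 30.5 and 30.3 in the knockout libraries, against 37.3 and 42.1 in the parental ones. Both were below both parental libraries, with log2 fold changes of -0.69 ± 0.31 (SE) and -0.37 ± 0.27 (SE) and adjusted p by limma of 0.470 and 0.616, on fewer than 50 reads per library. None of the 3 shared a 50-base stretch of unshared exon with another member.

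Summed over classes, the beta genes reached 4774 and 5165 normalized counts in the knockout libraries, against 4086 and 4177 in the parental libraries. The 15 alpha and alpha C-type genes summed to 2483 and 2519.8 in the knockout libraries, against 2148 and 2070.1 in the parental ones. The 3 gamma C-type genes summed to 2959 and 3333 in the knockout libraries, against 3910 and 4139 in the parental ones, and about 98% of that was PCDHGC3. As differences of the mean log2 sum, knockout minus parental, these came to 0.27 for beta, 0.25 for alpha and -0.36 for gamma C-type genes. Gamma A genes summed to 1083 and 1305 in the knockout libraries, against 1248 and 1154 in the parental ones. Gamma B genes summed to 839 and 629.9 in the knockout libraries, against 769.7 and 685 in the parental ones. For gamma A and gamma B the knockout libraries lay on either side of the parental pair. Over all 57 rows the sums were 12334 and 13202 in the knockout libraries, against 12357 and 12413 in the parental ones. Pseudogenes summed to 197 and 249 in the knockout libraries, against 195 and 187 in the parental ones, but to 72.6 and 90.8 in the knockout libraries, against 86.6 and 79.8 in the parental ones, without PCDHB17P. Over all rows without PCDHGC3 the sums were 9436 and 9920 in the knockout libraries, against 8528 and 8356 in the parental ones. PCDHGC3 made up 23.5% and 24.9% of all clustered protocadherin counts in the knockout libraries, against 30.98% and 32.7% in the parental libraries. Per kilobase of unshared exon its share was 25.1% and 26.7% in the knockout libraries, against 32.9% and 34.6% in the parental ones. Sums over members carry no p here, and the difference between the classes was not tested.

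**Figure D3:**
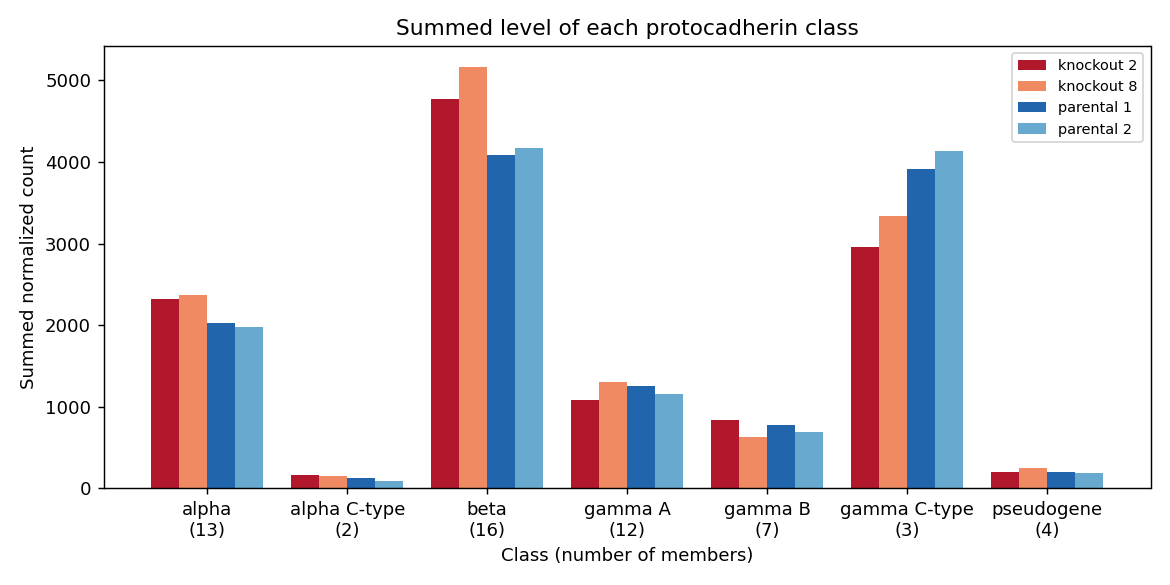
Summed normalized counts (y axis, from 0) of each class of clustered protocadherin, with the number of members in brackets, 1 bar per library, knockout 2 and 8 left of parental 1 and 2. Both knockout bars stand above both parental bars for alpha, alpha C-type, beta and pseudogene rows and below them for gamma C-type genes. The pseudogene bars rest on PCDHB17P.

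Each knockout library was also fitted on its own against the parental pair by limma, with the lone library assumed to vary like the parental libraries. The 2 comparisons share their parental libraries. Knockout library 8 had 7 members higher (PCDHA1, PCDHA5, PCDHB7, PCDHB12, PCDHB15, PCDHB16 and PCDHGA1, 12.7% of 55, beside 8.48% of all genes). It had 3 lower (PCDHGA12, PCDHGB5 and PCDHGC3, 5.45%, beside 10.3%). PCDHGB5 was 10.2-fold lower (log2 fold change -3.35 ± 0.25 (SE), adjusted p = 3.89e-07 by limma) and PCDHA1 was higher by 1.15 ± 0.17 on the log2 scale (adjusted p = 2.79e-04 by limma). Knockout library 2 had 3 members higher (PCDHAC2, PCDHB5 and PCDHGB2, 5.45%, beside 15.7% of all genes). It had 7 lower (PCDHB19P, PCDHGA3, PCDHGA9, PCDHGA11, PCDHGA12, PCDHGB7 and PCDHGC3, 12.7%, beside 16.9%). PCDHGA9 was lower by a log2 fold change of -1.77 ± 0.32 (SE) (adjusted p = 7.93e-04 by limma) and PCDHGB2 was higher by 1.06 ± 0.20 (adjusted p = 0.00119 by limma). Side by side, PCDHGA12 had log2 fold changes of -1.25 (knockout library 2) and -2.54 (knockout library 8), and PCDHGC3 had -0.44 (knockout library 2) and -0.26 (knockout library 8). These p-values rest on the spread of 2 parental libraries and do not cover differences between knockout libraries.

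At 2-fold or more from the parental mean there were 5 members in knockout library 2 (9.09%, beside 8.27% of all genes) and 3 in knockout library 8 (5.45%, beside 4.66%). Within 2-fold in both were 48 of the 55 tested members, a count not made over all genes. Between the knockout libraries 5 members differed at least 2-fold (PCDHB19P, PCDHGA9, PCDHGA12, PCDHGB5 and PCDHGB7, 9.09%, beside 8.14% of all genes). Between the parental libraries 0 did, beside 0.894% of genes. The median absolute log2 difference between the knockout libraries was 0.28 over the 54 tested members with a parental mean from 20 to 1000, against 0.29 over all genes of that range. Between the parental libraries it was 0.18 for those members, against 0.13 for the genes.

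**Figure D4:**
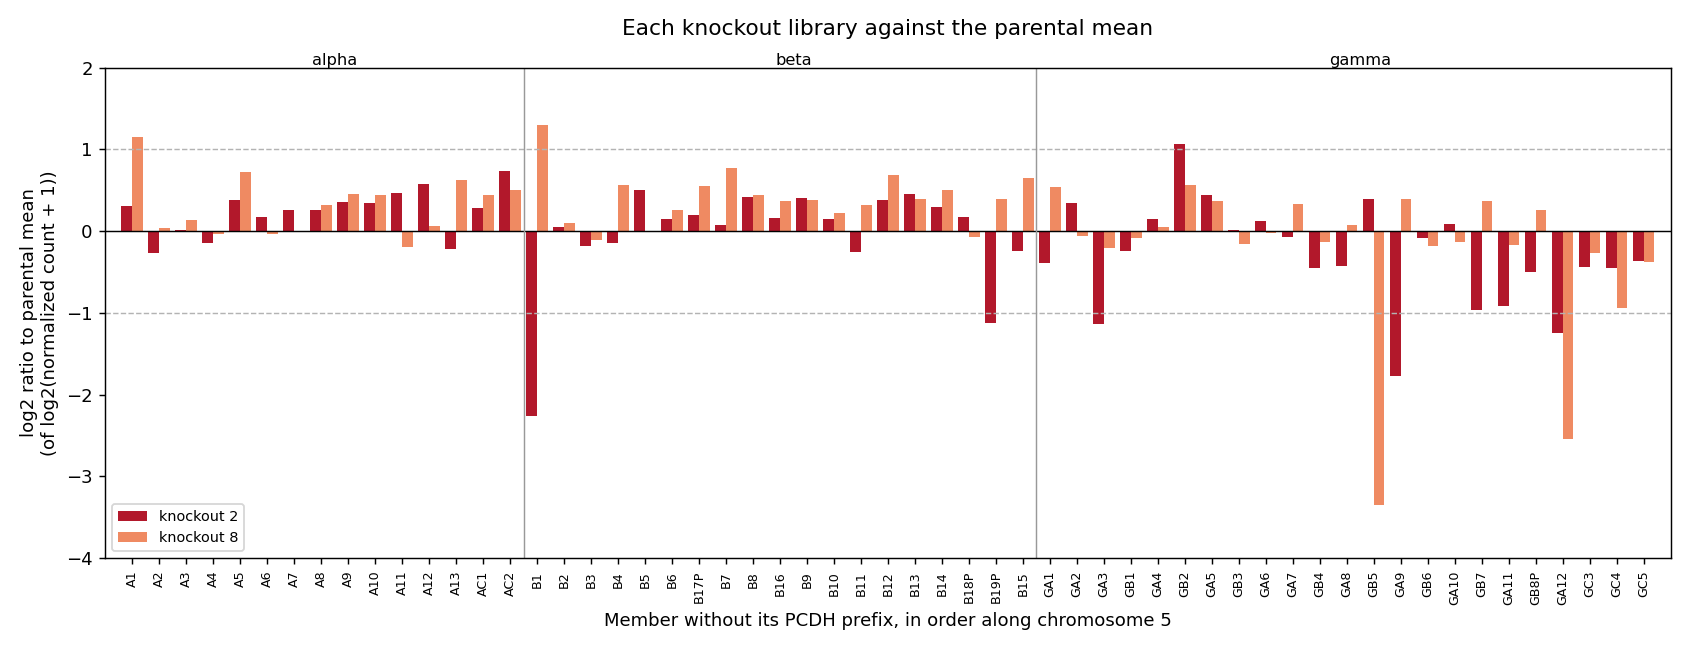
Difference of each knockout library from the parental mean, on the scale of log2(normalized count + 1), for each clustered protocadherin row along chromosome 5, 1 bar per knockout library, with dashed lines at 2-fold. Most bars stay within 2-fold, PCDHGB5 is at -3.35 in knockout library 8 and PCDHGA9 at -1.77 in knockout library 2.

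Genes beside the clusters had a median log2 fold change near 0. TAF7, a subunit of the general transcription factor TFIID that lies between the beta and gamma clusters (chr5:141260225-141320821), had 5579.8 and 6458 normalized counts in the knockout libraries, against 5351 and 5632 in the parental ones. Its log2 fold change was 0.13 ± 0.10 (SE) with an adjusted p of 0.652 by limma. SLC25A2, a mitochondrial ornithine carrier, lies within the annotated span of TAF7 on the same strand (chr5:141302629-141304045). SLC25A2 was at 2.10 and 1.95 in the knockout libraries, against 3.29 and 2.63 in the parental ones, at most 3 reads in each. Of 20 tested neighbours within 5q31, limma called 0, 6 lay above and 5 below both parental libraries (beside 22.8% and 23.7% of all genes), and log2 fold changes ranged from -0.40 to 0.27. Their median was 0.02, with 0.043 in knockout library 2 and -0.029 in knockout library 8. SPRY4, an inhibitor of receptor tyrosine kinase signalling, had 16190.1 and 22616 in the knockout libraries, against 26366 and 24347 in the parental ones. DIAPH1, a formin that follows the gamma cluster, had 10228 and 8894 in the knockout libraries, against 9252 and 9339.9 in the parental ones. SPRY4 was lower in both knockout libraries and DIAPH1 overlapped.

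Genes that act on the clusters were called by neither limma nor DESeq2. At an unadjusted p under 0.05 limma had 1 of 12 CTCF and cohesin genes lower (STAG2) and 0 higher. Of 17 silencing and DNA methylation genes it had 1 higher (LRIF1) and 1 lower (ATF7IP). Over all genes the shares were 5.85% higher and 6.16% lower. STAG2, LRIF1 and ATF7IP are named after their values were seen. Of 12 tested genes of CTCF and cohesin, 2 lay above and 2 below both parental libraries (beside 22.8% and 23.7% of all genes). The median log2 fold change was 0.04, with 0.12 in knockout library 2 and -0.062 in knockout library 8. RAD21, the cohesin subunit cleaved at chromosome separation, had 14527 and 12710.2 in the knockout libraries, against 13194 and 13459 in the parental ones. SMC1A, a core cohesin subunit, had 8315 and 7495 in the knockout libraries, against 8089 and 8409 in the parental ones. RAD21 and SMC1A both overlapped between the genotypes, and knockout library 8 was the lowest for each. Of 17 silencing and DNA methylation genes, 3 lay above and 7 below (beside 22.8% and 23.7% of all genes), with a median of -0.10, with -0.085 for knockout library 2 and -0.059 for knockout library 8. TRIM28, a corepressor of zinc finger proteins, had 17092 and 16854 in the knockout libraries, against 15988 and 17045 in the parental ones. DNMT1, the maintenance DNA methyltransferase, had 8875 and 9309 in the knockout libraries, against 10196 and 11099 in the parental ones. DNMT1 was lower in both knockout libraries with a log2 fold change of -0.23 ± 0.09 (SE) and an adjusted p of 0.422 by limma, and TRIM28 overlapped.

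Of 14 tested intracellular partners, 7 lay above and 2 below both parental libraries (beside 22.8% and 23.7% of all genes). The median log2 fold change was 0.08, with 0.088 in knockout library 2 and 0.081 in knockout library 8. CYFIP1, a WAVE complex subunit that binds motifs in protocadherin tails, had 7641 and 8579 in the knockout libraries, against 9405 and 9026 in the parental ones. NCKAP1, another WAVE complex subunit, had 6845 and 8682 in the knockout libraries, against 6406 and 6205 in the parental ones. CYFIP1 was lower and NCKAP1 higher in both knockout libraries, without a call. Of 7 proteases that shed protocadherins, 3 lay above and 0 below (beside 22.8% and 23.7% of all genes), with a median of 0.06, with 0.048 for knockout library 2 and 0.043 for knockout library 8. ADAM10, which cuts off the ectodomain, had 8113 and 7913 in the knockout libraries, against 7652 and 7707 in the parental ones. APH1A, a gamma-secretase subunit, had 7777 and 7083 in the knockout libraries, against 7508 and 7572 in the parental ones. ADAM10 was slightly higher in both knockout libraries, and APH1A overlapped.

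Protocadherins outside the clusters, which lie on several chromosomes and are not spliced to shared exons, had a median absolute log2 difference between the knockout libraries of 1.16 over 8 tested genes, against 0.27 over the 55 clustered members. Of the 8, 0 lay above and 2 below both parental libraries (beside 22.8% and 23.7% of all genes). The median log2 fold change was -0.38, with opposite signs in the 2 libraries, -0.61 for knockout library 2 and 0.12 for knockout library 8. PCDH1 had 4948 and 2327 in the knockout libraries, against 2739 and 2612 in the parental ones. PCDH10 had 232 and 1223 in the knockout libraries, against 929.8 and 772 in the parental ones. PCDH1 was high and PCDH10 low in knockout library 2 alone, and limma and DESeq2 called 0 of these genes.

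Markers of other cell types were measured beside these results, and their part in them was not tested. Of 12 neuronal markers 9 were tested, of which 6 lay above and 1 below both parental libraries (beside 22.8% and 23.7% of all genes). The list summed to 11834 and 11227 in the knockout libraries, against 9556 and 9761 in the parental ones, most of it TUBB3. DESeq2 called 2 of them higher, beside 1.21% of all genes. NEFL, a neurofilament subunit, had 965 and 1413 in the knockout libraries, against 515 and 596 in the parental ones (DESeq2 log2 fold change 1.10 ± 0.25 (SE), adjusted p = 0.00116). GAP43, a growth cone protein, had 1026 and 198 in the knockout libraries, against 49.3 and 52.6 in the parental ones (DESeq2 log2 fold change 3.59 ± 1.06 (SE), adjusted p = 0.0344). RBFOX3, which marks mature neurons and is named here after its values were seen, had 0 and 0.977 in the knockout libraries, against 9.87 and 11.4 in the parental ones. Of 10 melanocyte markers 6 were tested, of which 1 lay above and 4 below both parental libraries (beside 22.8% and 23.7% of all genes). DESeq2 called 1 melanocyte marker lower, beside 1.22% of all genes. MITF, the master regulator of the lineage, had 849 and 1049.9 in the knockout libraries, against 1645 and 1562 in the parental ones (DESeq2 log2 fold change -0.76 ± 0.18 (SE), adjusted p = 0.00272). Of 5 tested fibroblast markers and 2 tested blood markers, DESeq2 and limma called 0. PDGFRB, a growth factor receptor, had 1166 and 764 in the knockout libraries, against 829 and 847 in the parental ones. PDGFRA, its relative, had 1033 and 368 in the knockout libraries, against 355 and 284 in the parental ones, highest in knockout library 2. CD68, a lysosomal protein of macrophages, had 2343 and 968 in the knockout libraries, against 1704 and 1448 in the parental ones. ITGAM, an integrin of myeloid cells, had 29.5 and 25.4 in the knockout libraries, against 13.2 and 7.89 in the parental ones, with an unadjusted p of 0.0214 and an adjusted p of 0.340 by limma. Of the genes of these lists, named after their values were seen, COL1A2 and COL3A1 did not exceed 3.51 in any library, and HBB and HBA1 were at 0 in all. Other fibroblast markers were expressed. COL1A1 had 73.7 and 58.6 in the knockout libraries, against 63.6 and 47.4 in the parental ones. LUM had 31.6 and 165 in the knockout libraries, against 92.1 and 100.9 in the parental ones. DCN had 30.5 and 27.3 in the knockout libraries, against 10.96 and 14.9 in the parental ones. For DCN the unadjusted p was 0.024 and the adjusted p 0.347 by limma.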

How the data were processed

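RNA with poly(A) tails was sequenced from strand-specific libraries of A375 cells, per the labels' protocols. The deposited table holds a normalized signal for each gene in each library. The authors had divided read counts by a factor for each library: 100% of the values were whole multiples of a library's step within 0.001, and median-of-ratios factors recomputed from the recovered reads matched those steps. The submitters' processing notes list deepTools, DESeq2, HTSeq, Picard and STAR and the build hg38. The sources used here do not give versions, the annotation, the strand setting or how reads with several alignments were counted. Groups follow the labels, and the knockout columns, numbered 2 and 8, match only their group.

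Genes with at least 10 normalized counts in at least 2 libraries (15431) were tested by limma 3.58.1 with a trend on log2(value + 1) in R 4.3.3, two-sided; p-values were adjusted after Benjamini and Hochberg and called under 0.05. Fold changes on that scale understate changes of weakly expressed genes. Alternatives were edgeR 4.0.16 quasi-likelihood tests (TMM and RLE factors) and DESeq2 1.42.0, both on recovered reads, no filter, a pseudocount of 0.1, and each library left out in turn. With 2 libraries against 2, exact permutation could reach no p below 0.333 and was not run. The limma, edgeR and DESeq2 steps were tested on simulated data. Every member with a mean of at least 20 is named, with its value in every library. From each other list, genes called by limma or DESeq2 are named, or else the 2 highest. Further genes of some lists are named beside these, in part after their values were seen. Members and lists were chosen with earlier results of these data known. Positions and exons come from GENCODE 29 on GRCh38 and promoters from RefSeq (GRCh38.p14). Since reads carried no molecular identifiers, Poisson intervals and limits cover counting error only. The transcript level of the targeted gene itself is not reported here.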

Additional observations from a re-analysis of the deposited data

How the results depend on the processing

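The 55 tested members and TAF7 kept their direction and stayed uncalled under edgeR with either scaling, DESeq2, no filter and a pseudocount of 0.1, in 280 of 280 comparisons; the log2 fold change of a gene shifted by at most 0.98. All genes called numbered 0 by limma and 398 by DESeq2. Leaving out 1 library gave between 0 and 5023 genes called and between 0 and 10 members called, none when a parental library was left out. Leaving out 1 library turned the direction of 25 members, whose log2 fold changes then ranged as follows. In the alpha cluster these were PCDHA2 (-0.27 to 0.042), PCDHA4 (-0.23 to 0.048), PCDHA6 (-0.034 to 0.17), PCDHA7 (-0.016 to 0.26), PCDHA11 (-0.19 to 0.47) and PCDHA13 (-0.22 to 0.63). In the beta cluster they were PCDHB2 (-0.048 to 0.20), PCDHB3 (-0.45 to 0.16), PCDHB4 (-0.15 to 0.56), PCDHB5 (-0.0093 to 0.51), PCDHB11 (-0.25 to 0.32), PCDHB15 (-0.24 to 0.65), PCDHB18P (-0.068 to 0.18) and PCDHB19P (-1.13 to 0.40). In the gamma cluster they were PCDHGA1 (-0.39 to 0.54), PCDHGA2 (-0.064 to 0.34), PCDHGA4 (-0.0090 to 0.21), PCDHGA6 (-0.18 to 0.27), PCDHGA7 (-0.068 to 0.34), PCDHGA8 (-0.42 to 0.079), PCDHGA9 (-1.77 to 0.40), PCDHGA10 (-0.13 to 0.087), PCDHGB3 (-0.17 to 0.019), PCDHGB5 (-3.35 to 0.40) and PCDHGB7 (-0.96 to 0.37). Without its highest member, the log2 difference of a class sum was 0.29 for alpha genes (0.25 with it), -0.54 for gamma C-type genes (-0.36 with it) and 0.20 for all members (0.043 with it). The highest member was PCDHA6 for alpha genes and PCDHGC3 for gamma C-type genes and for all members. Why these genes differed from the rest of their sets, and why directions turned, was not tested. Members of 10 to 50 reads a library carry wide counting errors, and smaller differences among them were not detectable at this depth. No paired analysis was possible because the knockout columns carry no replicate number of the labels.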

Other observations

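The other cadherins likewise depend on calcium but lie outside the protocadherin clusters. Among the 15 that have an adjusted p, DESeq2 called 1 higher and 1 lower in the knockout libraries. Over all genes the shares were 1.21% and 1.22%, and limma called 0 of these cadherins. FAT1, a giant atypical cadherin, had 9098 and 9268 normalized counts in the knockout libraries, against 6864 and 6269 in the parental ones (DESeq2 log2 fold change 0.48 ± 0.12 (SE), adjusted p = 0.00743; adjusted p = 0.238 by limma). CDH13, a cadherin anchored to the membrane by a lipid, had 4979 and 4541 in the knockout libraries, against 6857 and 6649 in the parental ones (DESeq2 log2 fold change -0.50 ± 0.13 (SE), adjusted p = 0.00592; adjusted p = 0.234 by limma). Both were apart between the genotypes in every library. CDH1, the epithelial cadherin, had 0 reads in all 4 libraries, each of which allows up to 3 reads. Of the 15 cadherins tested by limma, 4 lay above and 1 below both parental libraries, beside 22.8% and 23.7% of all genes.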
